A study of Mus musculus with 4 samples.

Results

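Msmb-high cells of the mouse ventral prostate are epithelial cells in which Msmb made up at least 1% of all unique molecular identifiers (UMIs, 1 per captured transcript). Cells were chosen by their own counts: at least 500 UMIs, at most 20% mitochondrial counts, at least 10 Msmb UMIs and at least 1% Msmb. These values chose 55 cells among 8091 kept and 11245 deposited. By library there was 1 in sham 1, with 31 in sham 2, 13 in te2 1 and 10 in te2 2. They were set beside 3219 cells of the same libraries with Sbp plus Spink1 at 10% or more of UMIs and Msmb below 1%, called Sbp and Spink1 cells here. These numbered 1056, 1288, 392 and 483 in the same order. The samples were ventral prostates of C57BL6j wt mice, 2 of a sham group and 2 of a group coded te2, a code that the sources used here do not spell out. Hormone pellets were implanted and tissue was taken 2 weeks later. Both lobes of an animal were dissociated together, so each library is 1 animal, and 7000 cells per sample were loaded. The 4 tables held 3999690 to 13134017 UMIs, and the median kept cell had 1204 UMIs in sham 1, 1722 in sham 2, 3427 in te2 1 and 4075 in te2 2.

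Msmb encodes beta-microseminoprotein, a small secreted protein that is among the main products of prostate epithelium. In mice each lobe of the gland has its own blend of secreted proteins. Sbp (spermine binding protein) and Spink1 (a trypsin inhibitor of seminal fluid) are known as ventral lobe products, whereas Msmb and Pbsn (probasin) are best known from the dorsal and lateral lobes. Most of these products are kept up by androgen.

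The label of luminal cells was checked against Krt8 and Krt18, keratins of luminal epithelium, and Epcam, an adhesion molecule of epithelial cells. Of the 55 cells, 49 had a UMI of at least 1 of the 3. Their summed counts were 160 for Krt8, 384 for Krt18 and 233 for Epcam. Of the markers of other cells, smooth muscle, seminal vesicle, B cell and neuroendocrine lists had no UMI in the 55 cells. The 6 seminal vesicle genes also had none in the Sbp and Spink1 cells. The 6 basal markers summed to 0, 0, 1 and 8 UMIs in sham 1, sham 2, te2 1 and te2 2, and the 6 macrophage markers to 0, 2, 1 and 0. The 5 T and NK cell markers summed to 0, 9, 2 and 2, the 4 endothelial markers to 0, 6, 2 and 0, and the 4 red cell markers to 0, 4, 1 and 0. Of the 6 fibroblast markers, Col1a1, Col1a2, Col3a1, Lum and Pdgfra were at 0 and Dcn had 116 UMIs. No Msmb-high cell was among the 97 doublets called in the kept cells (scrublet), and none of the 15 barcodes shared by libraries belonged to one.

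The rule read Msmb, so its values are a description. Msmb took 4.12%, 3.97%, 2.19% and 1.73% of the summed UMIs of the Msmb-high cells in sham 1, sham 2, te2 1 and te2 2. In the Sbp and Spink1 cells it took 0.000437%, 0.00976%, 0.00171% and 0.00840%. Single cells ranged from 1.08% to 9.85% in sham 2, from 1.19% to 5.76% in te2 1 and from 1.18% to 12.9% in te2 2. Of the 55 cells, 21 lay at 1 to 2%, 24 at 2 to 5% and 10 at 5% or more. Just outside the rule were 23 kept cells at 0.5 to 1% and 7 at 1% or more with fewer than 10 Msmb UMIs. The closest below reached 0.998%, 0.996% and 0.979%, and the lowest members had 1.08%, 1.18% and 1.19%, so the threshold cuts through a continuous range. The 55 cells held 8383 of the 11100 Msmb UMIs in kept cells, and 7261 kept cells had none.

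Sbp and Spink1 together had a median of 16.7%, 2.44%, 0.603% and 0.963% of UMIs in the Msmb-high cells of sham 1, sham 2, te2 1 and te2 2. In macrophages, which do not make these products, the medians were 2.12%, 4.49%, 0.181% and 0.436%. The median of the Msmb-high cells of sham 2 was thus below the level in macrophages of the same library, whose median depth was 847 UMIs against 3316. There were 5 Msmb-high cells, 1 in sham 1 and 2 each in sham 2 and te2 2, that also passed 10% for Sbp plus Spink1, the highest at 25.3%. The 1 cell of sham 1 was among them, with 825 UMIs, 34 of Msmb and 121 of Defb50.

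**Figure D1:**
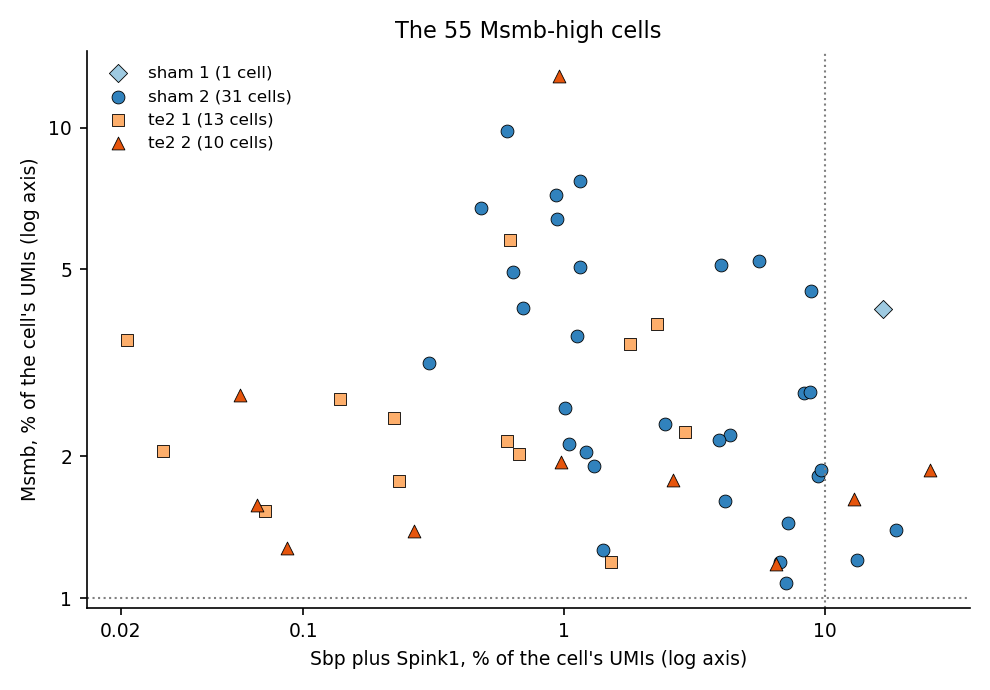
Each point is 1 of the 55 Msmb-high cells, with Sbp plus Spink1 (x, log axis) and Msmb (y, log axis) in percent of the cell's UMIs; dotted lines mark 10% and 1%. The 5 cells to the right of 10% are 1 of sham 1, 2 of sham 2 and 2 of te2 2, and all 10 cells at 5% Msmb or more lie to the left of it.

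The share of Msmb-high cells among kept cells was 0.0611% in sham 1 (exact 95% binomial interval 0.00155 to 0.340%) and 1.54% in sham 2 (1.05 to 2.17%). It was 0.559% in te2 1 (0.298 to 0.955%) and 0.473% in te2 2 (0.227 to 0.869%). The intervals cover counting error only. Both te2 libraries lay between the sham libraries, so the groups overlapped. The means were 0.799% ± 1.04 (SD, n = 2) in sham and 0.516% ± 0.0607 (SD, n = 2) in te2, and the exact two-sided permutation test gave p = 1, where 2 against 2 cannot go below 0.33. Without sham 2 the difference turned from -0.28 to 0.46 percentage points. Sbp and Spink1 cells were 64.5%, 63.9%, 16.9% and 22.9% of kept cells. Over both classes, Msmb-high cells made up 0.0946%, 2.35%, 3.21% and 2.03%, again with overlap between the groups (exact permutation p = 0.667).

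Gene levels were compared between Msmb-high and Sbp and Spink1 cells within sham 2, te2 1 and te2 2, the 3 libraries with at least 10 Msmb-high cells, whose summed depths were 130058, 74326 and 89624 UMIs. The 3 genes that the rules read were left out of the fit and its totals. With edgeR's quasi-likelihood test and the library as a block, 235 of 10010 genes passed an adjusted p of 0.05 (2.35%). Of these, 101 were higher (1.01%) and 134 lower (1.34%). Depth limited the lower calls: 16 of them had no count at all in the Msmb-high cells, 19 had 1 to 3, and 71 had 10 or more, against 97 of the 101 higher genes. DESeq2 called 96 genes, 73 higher and 23 lower. Without sham 2, te2 1 or te2 2 the count was 86, 133 and 134.

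The genes with the largest rise encode secreted proteins. Rnase1, a secreted ribonuclease, was at 558, 1065 and 129 CPM (counts scaled to a common total) in the Msmb-high cells of sham 2, te2 1 and te2 2, against 1.91, 0 and 0.581 in the Sbp and Spink1 cells. All 3 libraries were far apart between the classes (log2 change 9.12 ± 0.40 SE, adjusted p = 2.88e-110). Pbsn was at 6429, 1398 and 917 CPM against 16.8, 4.10 and 3.49 (log2 change 8.38 ± 0.28 SE, adjusted p = 7.09e-193). Defb1, a beta-defensin of epithelial surfaces, was at 4103, 2489 and 1117 CPM against 13.0, 4.10 and 9.29 (log2 change 8.05 ± 0.26 SE, adjusted p = 1.17e-194). Defb50, another beta-defensin, was at 70185, 76886 and 68894 CPM against 1273, 3493 and 3622 (log2 change 4.82 ± 0.28 SE, adjusted p = 2.06e-62). The level of Defb50 was nearly even across the 3 libraries in Msmb-high cells, whereas Pbsn and Defb1 were highest in sham 2. Defensins form a family of similar genes, and how reads shared between copies were counted is not given in the sources used here. With Defb50, Defb1 and Pbsn taken out of the fit, the count of calls was 265.

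Cell by cell, Defb50 was detected in 55 of 55 Msmb-high cells, Defb1 in 50 and Pbsn in 36. In the 3219 Sbp and Spink1 cells these genes had a UMI in 1996, 56 and 57. In 369 macrophages, a class that should lack them, they had one in 93, 3 and 1. For Pbsn the shares were 65.5% in Msmb-high cells, 1.77% in Sbp and Spink1 cells and 0.271% in macrophages. For Defb50 the macrophage share was 25.2%, so a UMI of it alone does not mark a cell. Macrophages had medians of 847, 2458 and 2159 UMIs in sham 2, te2 1 and te2 2. Depth differed between classes and libraries, with medians of 3316, 4742 and 10035 UMIs in the Msmb-high cells and 2462.5, 8265.5 and 10339 in the Sbp and Spink1 cells of sham 2, te2 1 and te2 2. With each cell thinned to 500 UMIs, Pbsn was seen in 15 of 31, 6 of 13 and 0 of 10 Msmb-high cells and in 11 of 1288, 1 of 392 and 1 of 483 Sbp and Spink1 cells. Among Msmb-high cells with at least 2000 UMIs, Pbsn was seen in 19 of 23, 7 of 9 and 4 of 7. The table of sham 1 does not list Pbsn. Of 4 listed products of the dorsal, lateral and anterior lobes, the rule read Msmb, and Pbsn was the only 1 tested. Tgm4 of that list had 0 UMIs in the 55 cells. In the Sbp and Spink1 cells of sham 2 it had 9, or 3.34 CPM by totals alone. At so low a level, 0 UMIs in 55 cells cannot separate the classes. Azgp1, listed as a ventral lobe product, was at 2233, 1206 and 870 CPM in Msmb-high cells against 1505, 895 and 778. The edgeR test did not separate the classes for it (adjusted p = 0.423). Defb1 is not limited to these cells, as 844 of the 8091 kept cells had a UMI of it.

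**Figure D2:**
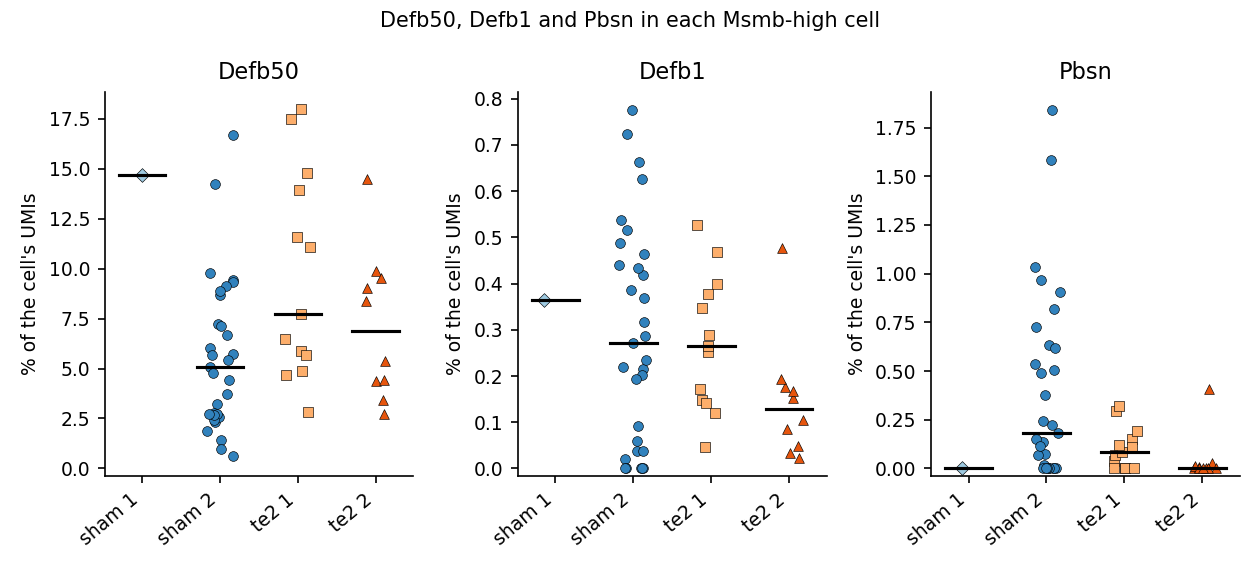
Share of each Msmb-high cell's UMIs (y, percent) taken by Defb50, Defb1 and Pbsn, by library (x); bars are medians. Median Defb50 was 5.08%, 7.70% and 6.88% in sham 2, te2 1 and te2 2, and the highest cell reached 17.96%, in te2 1.

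The cells differed widely among themselves. Defb50 ran from 0.601% to 16.7% of a cell's UMIs in sham 2, from 2.84% to 17.96% in te2 1 and from 2.74% to 14.5% in te2 2. Across the bands of Msmb, the median of Defb50 was 4.43% at 1 to 2% Msmb, 5.70% at 2 to 5% and 8.28% at 5% or more. Pbsn made up 0.118%, 0.348% and 0.807% of the summed UMIs of the same bands, and Defb1 0.148%, 0.284% and 0.510%. The median of Sbp plus Spink1 was 4.16%, 1.09% and 0.947%, and the median depth 5435, 4307 and 2335 UMIs. The bands do not hold the libraries evenly, with 8 of the 10 cells at 5% or more from sham 2 and 8 of the 10 cells of te2 2 in the lowest band. The 19 cells with no Pbsn UMI were shallower, at a median of 1152 UMIs against 5204.5 in the 36 with one. In te2 2, 1 cell gave 72 of the 78 Pbsn UMIs.

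The promoters of the 2 genes with the largest rise are shown because Pbsn is a textbook androgen target, and TGTTCT is the core of the half-site known for steroid hormone response. Of 9 genes looked up, Pbsn, Rnase1, Gpx3, Wfdc3 and Mboat2 had an entry in the RefSeq promoter table (GRCm38.p6, an earlier build than that of the counts); Msmb, Defb1, Defb50 and Ccdc80 are named only. The sequences are the 250 bases before the annotated start, 5′ to 3′ on the gene's strand, with TGTTCT or its reverse complement AGAACA and the TATA motif TATAAA in capitals.
Pbsn (chrX:77853501-77853750, minus strand): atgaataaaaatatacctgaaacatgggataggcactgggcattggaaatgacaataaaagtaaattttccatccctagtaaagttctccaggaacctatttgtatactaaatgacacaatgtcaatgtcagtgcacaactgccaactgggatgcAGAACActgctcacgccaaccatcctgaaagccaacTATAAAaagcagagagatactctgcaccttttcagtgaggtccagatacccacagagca
Rnase1 (chr14:51146768-51147017, minus strand): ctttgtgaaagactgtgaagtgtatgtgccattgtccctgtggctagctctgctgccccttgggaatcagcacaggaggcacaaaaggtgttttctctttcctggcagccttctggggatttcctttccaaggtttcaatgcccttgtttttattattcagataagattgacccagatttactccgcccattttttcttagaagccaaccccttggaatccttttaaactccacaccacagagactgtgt
Both motifs were searched on both strands. Pbsn had 1 match of TGTTCT, on the strand opposite the gene 95 bases before the start, and 1 of TATAAA at 59 bases. Rnase1 had neither. Of 32851 windows of the same length, 16.1% held TGTTCT and 12.4% held TATAAA. A match is a description of letters and not a bound site.

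Other named genes that were higher had smaller counts. Mmp7 (matrilysin, a protease of glandular epithelium) was at 46.5, 706 and 199.9 CPM against 0.764, 13.5 and 18.9 (log2 change 4.73 ± 0.40 SE, adjusted p = 8.31e-29). Hpgd, which inactivates prostaglandins, was at 112, 667 and 388 CPM against 17.6, 74.3 and 70.6 (log2 change 2.79 ± 0.28 SE, adjusted p = 5.01e-21). Each class was higher in te2 for both genes, and the classes did not overlap. Ncoa4, a receptor for ferritin turnover, was at 809, 411 and 165 CPM against 117, 91.1 and 94.97 (log2 change 2.08 ± 0.24 SE, adjusted p = 1.01e-14). Ccdc80, H2-Q10 and Derl3 rose by 3.08 ± 0.39, 2.60 ± 0.36 and 1.94 ± 0.41 SE on the log2 scale, and H2-Q10 belongs to a family with near-identical copies. The calls of H2-Q10 and Derl3 were lost without sham 2, and Derl3 in te2 2 was at 23.5 CPM against 21.8, on 2 UMIs. Lcmt1 rose by 2.31 ± 0.30 SE, but 67 of its 106 UMIs came from 1 cell of te2 1, and its call was lost without te2 1 and in DESeq2.

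Of the 12 lower genes named by the rule, 9 had no UMI in any Msmb-high cell. These 9 passed the filter on low counts through the Sbp and Spink1 cells alone, so the filter set their direction. Set against 3 counts, the floor used for the 3 libraries together, Gm16976 was at least 14.1-fold lower, Scgb2b7 at least 6.71-fold, Wwc2 at least 5.55-fold and Adh6a at least 5.15-fold. Ptgdr, Cited1, Ifit1, Tac1 and Irf7 were at least 5.10-, 4.12-, 3.76-, 3.42- and 3.23-fold lower. In the Sbp and Spink1 cells of sham 2, te2 1 and te2 2, Gm16976 had 3, 769 and 850 UMIs, Adh6a 12, 210 and 379, and Ptgdr 8, 232 and 352, so these bounds rest on te2. Gm16976 lost its call in DESeq2, and Scgb2b7, Wwc2, Ifit1, Tac1, Irf7 and Naip6 lost theirs without sham 2. Spink5, an inhibitor of serine proteases, rests on more counts. It was at 279, 64.1 and 599.6 CPM against 5270, 15964 and 8907 (log2 change -4.89 ± 0.26 SE, adjusted p = 3.86e-73). Crabp1, which binds retinoic acid in the cytoplasm, was at 37.2, 0 and 23.5 CPM against 608, 647 and 750 (log2 change -4.91 ± 0.38 SE, adjusted p = 1.99e-35). In the Sbp and Spink1 cells Crabp1 was nearly even across the 3 libraries. Naip6, of a family with close copies, had 1 UMI, which is 0.0316 times the Sbp and Spink1 level (counting interval 0.000800 to 0.176).

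**Figure D3:**
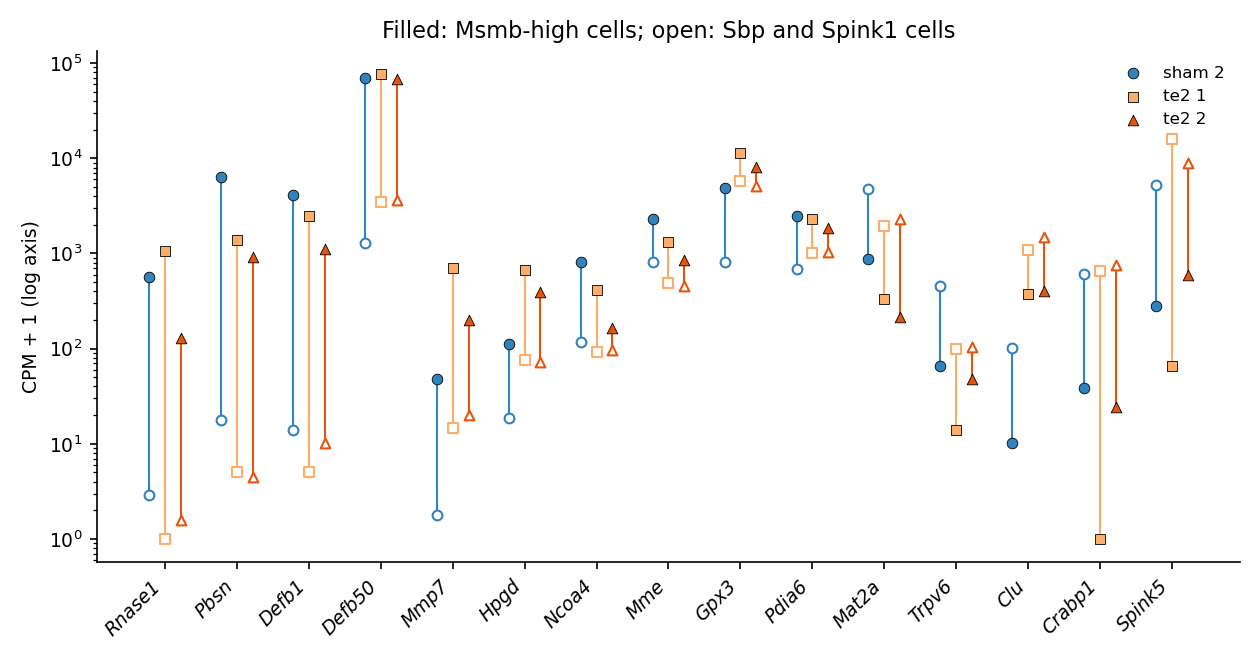
CPM plus 1 (y, log axis) of 15 genes in Msmb-high cells (filled) and Sbp and Spink1 cells (open) of sham 2, te2 1 and te2 2, joined within a library. For the 10 genes from Rnase1 to Pdia6 the filled symbol is the higher in every library, and for the 5 from Mat2a to Spink5 it is the lower.

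Of 16 tested genes of luminal identity, 1 was higher and 1 lower (median log2 change -0.37 against -0.24 over all genes). Hoxb13, a homeobox factor of the prostate, was at 614, 539 and 858 CPM against 978, 1391 and 1427 (log2 change -0.91 ± 0.20 SE, adjusted p = 0.000844). Krt18 was at 958, 1501 and 1916 CPM against 1085, 1813 and 1859, and the test did not separate the classes (adjusted p = 0.914). Krt8 was at 595, 577 and 588 CPM against 1161, 816 and 752 (log2 change -0.62 ± 0.21 SE, adjusted p = 0.0924). Epcam was at 558, 1078 and 1046 CPM against 734, 1425 and 1424 (log2 change -0.42 ± 0.20 SE, adjusted p = 0.405). Krt8 and Epcam were thus the lower in every library, but neither passed.

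Of 17 androgen-regulated prostate genes, 3 were higher, Pbsn and Mme among them, and 1 was lower (Tsc22d3), with a median log2 change of -0.13. Mme, the cell surface peptidase neprilysin, was at 2279, 1334 and 858 CPM against 814, 485.5 and 455 (log2 change 1.30 ± 0.20 SE, adjusted p = 7.60e-09). Tsc22d3, a glucocorticoid-induced factor, rested on 11 UMIs in these libraries and fell by 1.85 ± 0.41 SE on the log2 scale. None of the 7 steroid and prolactin receptor genes passed the test in either direction. Prlr, the prolactin receptor, was at 605, 539 and 317 CPM against 351, 389 and 386.5 (log2 change 0.36 ± 0.21 SE, adjusted p = 0.582).

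Of 297 list genes tested, 38 passed, 20 higher and 18 lower. Over all genes, 235 of 10010 passed (2.35%), 1.01% higher and 1.34% lower, and every list count stands beside these shares. The lists were chosen with earlier results of these data known, so their counts are a description. Of 23 genes of protein folding in the endoplasmic reticulum, 7 were higher and 0 lower, with a median of 0.44. Pdia6, a disulfide isomerase, was at 2456, 2322 and 1858 CPM against 684, 1008 and 1046 (log2 change 1.30 ± 0.19 SE, adjusted p = 5.58e-09). The chaperone Calr was at 1516, 2142 and 1140 CPM against 525, 852 and 859 (log2 change 1.10 ± 0.19 SE, adjusted p = 2.24e-06). Pdia4, Sdf2l1, Creld2, Hsp90b1 and Pdia3 rose by 1.08, 1.06, 0.91, 0.84 and 0.75 on the log2 scale. Hspa5, the main chaperone of this compartment, was at 1637, 2784 and 1811 CPM against 1007, 1591 and 1697 and did not pass (adjusted p = 0.137). Of 25 genes of the secretion machinery none passed in either direction (median 0.13).

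Of 7 tested acute phase and innate defence genes, 4 were higher and 1 lower. Lbp, Lcn2, Saa1 and Lrg1 had 0, 0, 0 and 1 UMIs in the Msmb-high cells of sham 2, so their calls rest on te2 libraries. Lbp and Lcn2 were the higher in both te2 libraries. Saa1 was at 89.8 CPM against 149 in te2 1 and at 799.5 against 200.1 in te2 2, where 65 of its 75 UMIs lay in 1 cell. Lrg1 was at 603 CPM against 138 in te2 1 and at 199.9 against 256 in te2 2. Pigr, which carries antibodies across epithelium, was at 372, 1360 and 1011 CPM against 1457, 2944 and 3024 (log2 change -1.53 ± 0.21 SE, adjusted p = 5.43e-11). Of 6 protease inhibitors and kallikreins, Wfdc3 and Cst3 were higher, by 1.16 ± 0.22 and 0.97 ± 0.23 SE. Wfdc3 was at 3926, 6184 and 9452 CPM against 464.5, 6324 and 6107, so the classes were level in te2 1. Cst3 was level there too, at 269 CPM against 265, and higher in sham 2 and te2 2.

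Of 13 genes of zinc handling and metallothioneins, 1 passed. Slc30a10, a metal exporter, was at 83.7, 89.8 and 70.5 CPM against 10.3, 12.7 and 26.7 (log2 change 2.37 ± 0.52 SE, adjusted p = 0.000487), on 22 UMIs. Mt1 was at 10820, 1937 and 2716 CPM against 8016, 1748 and 2294 (adjusted p = 0.71). Of 12 genes of ion and fluid transport, Aqp5 (a water channel) was higher by 1.55 ± 0.32 SE, while Kcnk3, Trpv6 and Slc26a4 were lower. Trpv6, a calcium channel, was at 65.1, 12.8 and 47.0 CPM against 458, 98.5 and 103 (log2 change -2.37 ± 0.40 SE, adjusted p = 4.96e-07).

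Of 9 tested proximal luminal markers, 3 were lower and none passed as higher, while 3 of the 9 had a fitted change above 0. Among these, Krt4 and Wfdc2 had 8 of 9 and 40 of 40 UMIs in te2 2 (log2 change 1.56 ± 0.76 and 1.03 ± 0.36 SE, adjusted p = 0.42 and 0.124). Clu (clusterin) was at 9.30, 372 and 399.7 CPM against 101, 1087 and 1485 (log2 change -1.83 ± 0.25 SE, adjusted p = 1.78e-10). Psca, a surface antigen, had no UMI in either class of sham 2, and in te2 1 and te2 2 it had 0 and 3 UMIs in Msmb-high cells against 2665 and 3267, so its call rests on te2 alone. Ly6a had 8 UMIs in Msmb-high cells, all in te2 2. Mat2a, which makes S-adenosylmethionine, was the 1 gene of 14 in polyamine and methionine metabolism to pass, at 884, 334 and 212 CPM against 4722, 1926 and 2309 (log2 change -2.73 ± 0.23 SE, adjusted p = 2.35e-30). Interferon response genes were lower in 3 of 14 (Ifit1, Irf7 and Bst2), and 6 of the 14 had no UMI in Msmb-high cells. Over all 10010 tested genes, 134 were lower (1.34%) and 299 had no count in the Msmb-high sums. Genes without a count there passed the filter on low counts through the Sbp and Spink1 cells alone, so the filter set their direction. Aldoa and Tpi1 were lower among 13 glycolysis genes, Fdps among 20 sterol and fatty acid genes, and Btg2 among 21 immediate early and stress genes. Of 21 cell cycle genes, Ccnd1 was higher by 1.32 ± 0.29 SE and Ccnd2 lower by 3.94 on the log2 scale. Ccnd2 had 6 UMIs in Msmb-high cells. It was at 18.6, 12.8 and 35.3 CPM against 39.7, 609 and 518, so its call rests mainly on te2. Of 14 tested genes of the MHC class I list, 1, B2m, had a fitted change above 0, and it passed (0.87 ± 0.20 SE). The median of this list was -0.41, against -0.24 over all genes. B2m was at 2382, 1014 and 988 CPM against 629, 762 and 887, so the classes were closest in te2 2. No gene passed among 35 of oxidative phosphorylation or 15 of citrate metabolism.

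**Figure D4:**
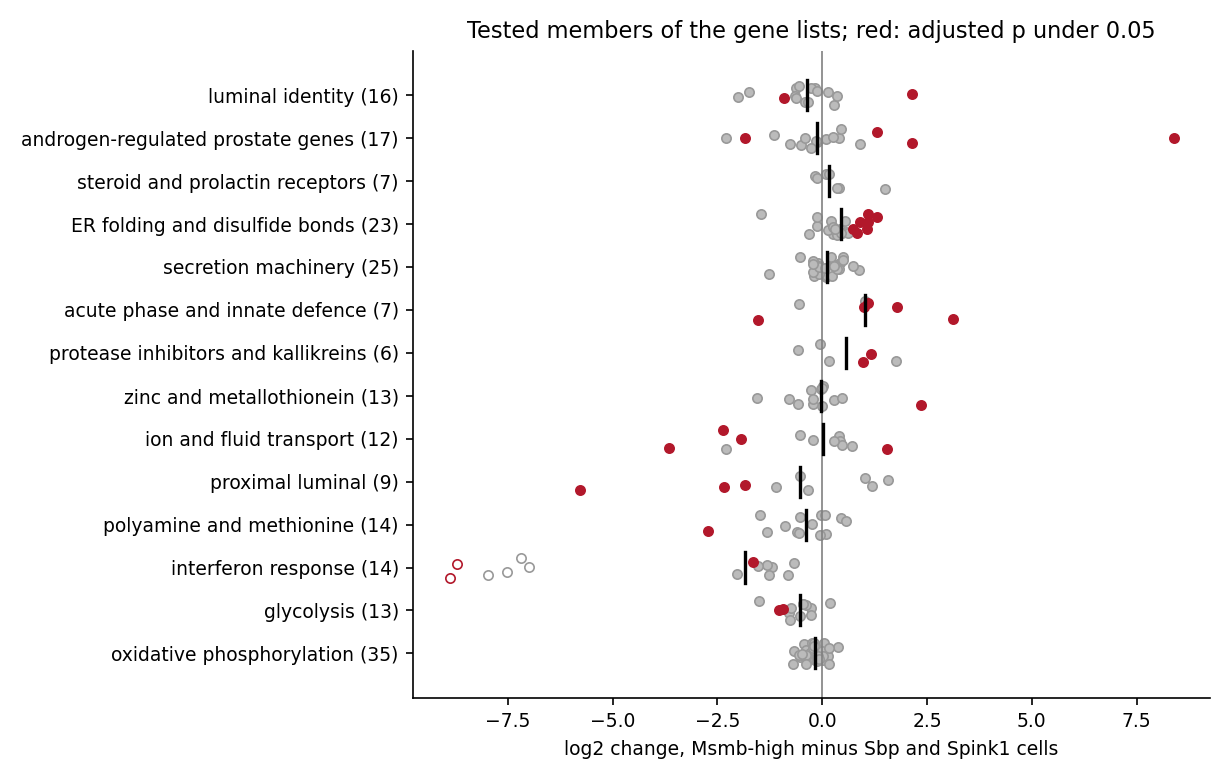
Log2 change between Msmb-high and Sbp and Spink1 cells (x) of the tested members of 14 gene lists (y, number tested in brackets); bars are medians, red marks an adjusted p under 0.05 (edgeR) and open circles are genes with no UMI in Msmb-high cells. Of the 23 genes of endoplasmic reticulum folding, 19 lie above 0 and 7 passed. Over all 10010 tested genes, 3483 had a change above 0.

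Dcn (decorin), a fibroblast gene, was also higher in Msmb-high cells, at 679, 295 and 235 CPM against 101, 215 and 63.3 (log2 change 1.78 ± 0.25 SE, adjusted p = 1.56e-10). It was spread over 32 of the 55 cells, and the cell with most had 14 of the 116 UMIs. The other 5 fibroblast markers were at 0 in these cells. The part of free RNA in the Dcn level was not tested.

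For te2 against sham within Msmb-high cells the design allowed no test over all 4 libraries, since sham 1 held 1 such cell. Values are therefore given for sham 2 against te2 1 and te2 2. A fit of these 3 sums in edgeR leaves 1 degree of freedom and assumes that the lone sham sum varies like the te2 sums. It called 92 of 1741 genes (5.28%), 37 higher (2.13%) and 55 lower (3.16%). Scaling by totals alone gave 53 higher and 14 lower genes, as the median of all genes moved from 0.05 to 0.28. DESeq2 called 14 genes and edgeR without the filter on low counts 1, Spink1, so single calls are weak.

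Of 13 tested androgen-regulated genes, 4 were lower in te2 (Pbsn, Spink1, Azgp1 and Mme) and 1 was higher (Sbp). Pbsn had 691, 109 and 78 UMIs in sham 2, te2 1 and te2 2, or 7727, 1728 and 1097 CPM (log2 change -2.45 ± 0.28 SE, edgeR adjusted p = 1.63e-15). Both te2 libraries were below sham 2. The sham 2 cells with most Pbsn held 191, 140 and 86 of its 691 UMIs, and 1 cell of te2 2 held 72 of 78. With each cell thinned to 500 UMIs, Pbsn was seen in 15 of 31, 6 of 13 and 0 of 10 Msmb-high cells. Spink1 was at 21728, 1221 and 1223 CPM (log2 change -4.15 ± 0.28 SE, edgeR adjusted p = 2.27e-42), while Sbp was at 25082, 5217 and 96933 CPM. Its fitted log2 change was 1.03 ± 0.25 SE (edgeR adjusted p = 0.00206), although the te2 libraries lay on either side of sham 2. One cell of te2 2 held 4390 of the Sbp UMIs. The level of Sbp plus Spink1 in macrophages was also higher in sham, at medians of 2.12% and 4.49% against 0.181% and 0.436%, and its part in these values was not tested. Azgp1 and Mme fell by 1.09 ± 0.31 and 1.04 ± 0.31 SE on the log2 scale. The metal-binding Mt1 was at 13005, 2394 and 3248 CPM and Mt2 at 3366, 1015 and 731 (log2 change -2.20 ± 0.27 and -1.95 ± 0.31 SE, edgeR adjusted p = 1.01e-12 and 1.99e-07). Of the other falling genes named by the rule, Muc19 had 44, 1 and 2 UMIs, Pcp4 25, 1 and 0, Derl3 31, 6 and 2, Ctrc 67, 14 and 6, and Creb5 70, 11 and 11. Gm18909 (24, 3 and 4) and Rps7 (27, 4 and 5) complete the list.

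Of 14 acute phase and defence genes, 7 passed the filter on low counts, some through te2 alone, so their direction is partly set by the filter and single genes are given. Lrg1 had 1, 47 and 17 UMIs, a ratio of te2 to sham of 49.7 (counting interval 8.61 to 1994), and Lcn2 had 0, 18 and 16, at least 8.80-fold higher with the same floor. Saa1 had 0, 7 and 68 and Wfdc2 0, 0 and 40 UMIs, so each was high in 1 te2 library. Clu had 1, 29 and 34 UMIs, a ratio of 48.9 (8.47 to 1963). Gsn, an actin-severing protein, had 5, 24 and 52 UMIs in 23 cells and rose by 3.28 ± 0.68 SE on the log2 scale (edgeR adjusted p = 0.000174). Mmp7 had 5, 55 and 17, Qsox1 2, 14 and 26, Tspan8 1, 5 and 25, and Anxa3 0, 1 and 25 UMIs. Lcmt1 had 5, 93 and 8 UMIs.

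Whether the te2 response differed between the classes was tested over the same 3 libraries, with a block for the library and an interaction term. It called 4 of 11172 genes (0.0358%), all with the smaller rise or a fall in Msmb-high cells. Wfdc3, a WAP domain protease inhibitor, was at 3777, 6263 and 9335 CPM in Msmb-high cells and at 482, 6264 and 6009 in Sbp and Spink1 cells of sham 2, te2 1 and te2 2. The rise was 2.06-fold in the first and 12.7-fold in the second class (log2 difference -2.65 ± 0.37 SE, edgeR adjusted p = 5.22e-09). Gpx3, a secreted glutathione peroxidase, was at 4699, 11617 and 7907 CPM against 853, 5735 and 4979, a rise of 2.08-fold and 6.28-fold (log2 difference -1.62 ± 0.36 SE, edgeR adjusted p = 0.027). In both genes the classes were farthest apart in sham 2. Sbp and Spink1 cells of sham 1 were as low as those of sham 2, with Wfdc3 at 326 and 451 CPM and Gpx3 at 402 and 798 (totals alone). Ccdc80, a matrix protein, had 21, 9 and 14 UMIs in Msmb-high cells and 6, 128 and 80 in Sbp and Spink1 cells (log2 difference -4.24 ± 0.87 SE, edgeR adjusted p = 0.00595). Mboat2, a lipid acyltransferase, had 10, 4 and 3 against 18, 174 and 200 UMIs (log2 difference -4.20 ± 0.98 SE, edgeR adjusted p = 0.0479). In te2 1, 1 cell gave 413 of the 894 Gpx3 UMIs of Msmb-high cells, and in te2 2, 1 cell gave 273 of 681. The part of these cells in the Gpx3 rise was not tested. Ccdc80 had a UMI in 15 of the 55 Msmb-high cells. A single cell gave 10 of its 21 UMIs in sham 2, 1 gave 5 of 9 in te2 1 and 1 gave 6 of 14 in te2 2. By totals alone Ccdc80 was at 174, 124 and 173 CPM in Msmb-high cells. Kept cells of neither class were at 122, 154 and 186 CPM. The 1 Msmb-high cell of sham 1 had 1 UMI of Wfdc3 and none of Gpx3 among 825. None of the 4 passed in DESeq2, nor did any of the 3 that could be tested in sums thinned to the smallest total.

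**Figure D5:**
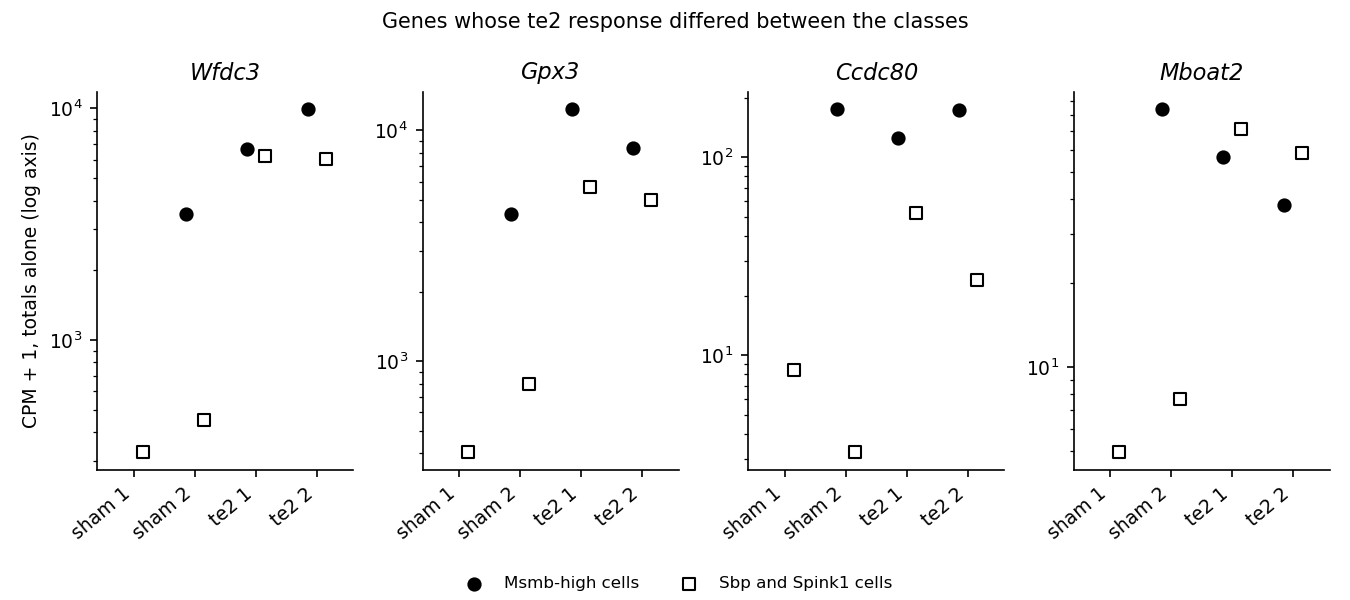
CPM plus 1 by totals alone (y, log axis) of the 4 genes by library (x), in Msmb-high cells (filled circles) and Sbp and Spink1 cells (open squares); sham 1 has no filled circle because it held 1 Msmb-high cell. Wfdc3 in Sbp and Spink1 cells lies at 326 and 451 CPM in sham and at 6199 and 6030 in te2.

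The promoters of Wfdc3 and Gpx3 are shown in the same way, as the pair with a differing response on ample counts.
Wfdc3 (chr2:164743268-164743517, minus strand): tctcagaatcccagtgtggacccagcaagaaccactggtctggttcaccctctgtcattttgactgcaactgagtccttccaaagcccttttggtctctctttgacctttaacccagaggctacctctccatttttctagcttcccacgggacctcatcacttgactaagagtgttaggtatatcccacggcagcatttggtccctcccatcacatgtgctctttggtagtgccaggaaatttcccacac
Gpx3 (chr11:54902604-54902853, plus strand): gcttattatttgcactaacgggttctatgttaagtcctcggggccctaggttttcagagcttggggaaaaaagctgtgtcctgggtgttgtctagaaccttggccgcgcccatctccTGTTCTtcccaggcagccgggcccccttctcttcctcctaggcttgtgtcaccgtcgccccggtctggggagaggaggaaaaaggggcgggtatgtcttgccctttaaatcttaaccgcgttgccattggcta
Gpx3 had 1 match of TGTTCT, 133 bases before the start. Wfdc3 and Mboat2 had no match of either motif.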

How the data were processed

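Single cells of 4 ventral prostates were measured with 10x Genomics 3' chemistry, which counts UMIs. The authors deposited whole-number UMI counts per gene and cell. The submitters' processing notes name kallisto 0.46.1, bustools 0.39.4, R 4.3.2, Seurat 5.0.1 and GRCm39, with no role for each. Genes keep the symbols of the tables, and genes that 1 library does not list count as 0 there.

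Cells, members and the comparison class follow the rule given above. Macrophages used as a reference had their 6 markers at 2% or more of UMIs. Members and lists were chosen with earlier results of these data known. Each class was summed within each library, and the sums were tested with edgeR 4.0.16 in R 4.3.3 (quasi-likelihood, TMM, filterByExpr, two-sided, Benjamini-Hochberg, FDR 0.05). CPM is scaled by TMM factors unless totals alone are named, and the SE is the absolute log2 change over the square root of F. The totals behind CPM cover the genes that each fit kept, so CPM cannot be compared between fits. Pbsn in Msmb-high cells of sham 2 was at 6429 CPM in the class fit and 7727 in the te2 fit. A class needed 10 cells in a library. Msmb was left out of all fits, and Sbp and Spink1 of those with both classes. Named genes were the 12 largest changes each way between classes (10 for te2, 5 for the difference) past the threshold. Their mean log2 CPM had to be 5 or more. Between classes the direction also had to be the same in every library, and for te2 the groups had not to overlap. The difference had no such further condition. Members of the lists were added. Some genes that met the rule are not reported here. With 3 libraries, the small p-values rest largely on a spread pooled over genes. On counts simulated for the class comparison (9351 genes), 72% of changes of 2 and 92% of 4 on the log2 scale were recovered; for te2 against sham (1553 genes) it was 41.3% and 86.2%, for the difference of response (10619 genes) 9% and 63%. In the simulated class comparison, 7 unchanged genes were called, 4.09% of its calls. The simulation gave all genes the same fixed spread and each gene 1 mean, and changed only genes above a minimum level. It does not model genes carried by single cells, so recovery in the real sums can differ. Alternatives were DESeq2 1.42.0, totals alone, no filter, thinned sums, other cell rules and each library left out. Doublets were called with scrublet in scanpy 1.11.5.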

Additional observations from a re-analysis of the deposited data

Results flagged for a closer look

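In 4 genes the te2 response differed between Msmb-high and Sbp and Spink1 cells by the test of the difference itself (edgeR, sham 2 and both te2 libraries). On the log2 scale the response in Msmb-high cells minus that in Sbp and Spink1 cells was -4.24 for Ccdc80, -4.20 for Mboat2, -2.65 for Wfdc3 and -1.62 for Gpx3. Over all 4 libraries, Msmb-high cells held 44 UMIs of Ccdc80, 17 of Mboat2, 1709 of Wfdc3 and 2100 of Gpx3. All 4 comparisons have 1 sham library, so an animal and its treatment cannot be told apart in them.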

How the results depend on the processing

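Between Msmb-high and Sbp and Spink1 cells, edgeR called 235 genes. The count was 65 at a minimum of 2% Msmb, 132 from 1000 UMIs and 130 without cells that meet both rules, each of which left 2 libraries. It was 96 with DESeq2, 142 with thinned sums (94 higher, 48 lower, of 1506 genes tested) and 86 to 134 with 1 library left out. Apart from the fewer genes or samples, the cause was not tested. It was 334 with no replicate block. No UMI minimum, scrublet calls left out, totals alone and no filter gave 235, 236, 271 and 243. Of the 24 genes named between classes, 16 could be compared in DESeq2, 13 in thinned sums and 20 in most alternatives with 2 libraries. Among the genes compared none reversed, but calls were lost. Ifit1, Tac1 and Irf7 lost theirs in most alternatives with 2 libraries. H2-Q10, Derl3, Scgb2b7, Wwc2 and Naip6 lost theirs without sham 2, and Wwc2 also at 2%. Gm16976 and Lcmt1 lost theirs in DESeq2, and Lcmt1 also without te2 1. Of the 20 genes named for te2, 3 could be compared in DESeq2. For te2 against sham (92 calls) DESeq2 gave 14 and no filter 1, and for the difference of response (4 calls) DESeq2 and thinned sums gave 0 (45 and 59 genes at an unadjusted p under 0.05). With totals alone its 4 calls were 1 higher and 3 lower. The alternatives for these 2 fits over 3 libraries, and the class comparison without Defb50, Defb1 and Pbsn, were chosen after seeing the data. In thinned sums the difference for Ccdc80 turned to 0.10. The difference in share was -0.28 percentage points, between -1.02 and 0.46 with 1 library left out (0.46 without sham 2). No paired analysis of te2 against sham was possible because sham 1 held 1 Msmb-high cell. For the same reason, or because te2 2 fell under 10 cells, leaving out other libraries, the block, 1000 UMIs, both rules and minimums of 2% and 5% could not be fitted there; 5% could not be fitted between classes either.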
